A study of Mus musculus with 8 samples.

Results

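The genes that carry zinc, iron, copper and magnesium across membranes, with the metallothioneins that hold zinc and copper, were examined in the renal cortex of aged and young mice. Members were every gene of the count table in the solute carrier families Slc39, Slc30, Slc11, Slc40, Slc31 and Slc41, the copper ATPases Atp7a and Atp7b, the magnesium genes Cnnm1, Cnnm3 and Cnnm4, the metallothioneins Mt1, Mt2 and Mt3, and the zinc sensor Mtf1. The rule found 41 of 22609 genes. Of these, 35 had at least 10 counts in 4 or more libraries and all 35 passed the filter of the test, whereas 6 were below this minimum. The animals were male C57BL6 mice without treatment, 4 aged at 30 months and 4 young at 5 months by the labels (the study's methods give a somewhat higher mean age for the aged mice), and each mouse gave 1 library of total RNA depleted of ribosomal RNA. No allele or agent was named in the labels of either group.

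ZIP proteins, encoded by the Slc39 genes, bring zinc and in some cases iron or manganese into the cytosol, and ZnT proteins, encoded by the Slc30 genes, take zinc out of it, either across the plasma membrane or into vesicles and the Golgi. Metallothioneins bind the zinc that arrives, and their genes are switched on by the zinc-sensing transcription factor MTF1 and by glucocorticoid hormones. In the kidney the proximal tubule takes back filtered metals, and the distal convoluted tubule sets how much magnesium is lost in the urine.

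The libraries of the aged mice held 14820804 to 19018543 read pairs on genes and those of the young mice 15152597 to 19821429. Levels are given as CPM, which are counts scaled to library size with the TMM method. Changes were assessed by the quasi-likelihood test of edgeR over 13944 genes with Benjamini-Hochberg adjustment, and genes that differed more than 1.5-fold with an adjusted p under 0.05 were called changed. Aged mouse 1 stood apart from the other 7 mice, at -71.5 on the first principal component where the others lay between -16.3 and 26.2. In that library the summed CPM of 7 markers of proximal tubule segments S1 and S2 was 8962, against 19770 to 22120 in the other aged and 19210 to 23390 in the young mice. Its 9 glucocorticoid and stress genes summed to 3221 CPM, against 873.8 to 1205 in the other aged mice and 1116 to 1535 in the young mice. The 3 markers of segment S3 (Slc7a13, Cyp7b1 and Atp11a) summed to 516.2, 1134, 819.5 and 2846 CPM in aged mice 1 to 4 and to 4774, 4147, 3193 and 4130 CPM in young mice 1 to 4. By this sum aged mouse 4 was nearest to the young group, and none of the 3 markers passed the adjusted p. Only Atp11a was lower in every aged mouse. Slc7a13 overlapped between the groups, at 1076 CPM in aged mouse 4 and 964.2 CPM in young mouse 3. Cyp7b1 also overlapped, at 37.38 CPM in aged mouse 4 and 35.75 CPM in young mouse 2. Lrp2, the endocytic receptor of the proximal tubule, stood at 3862 CPM in aged mouse 1 and at 8734 CPM or more in every other library. The share of cortex in each sample was not tested. In bulk tissue fewer cells of a type and less RNA per cell cannot be told apart.

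With age 2 of the 35 genes tested changed, and both fell: Slc39a14, a ZIP carrier of zinc, iron and manganese, and Slc41a2, a magnesium carrier. This was 5.71% of the members, against 2.06% of all genes tested. Slc30a6, which encodes a ZnT protein of the Golgi, also passed the adjusted p but not the fold threshold. Thus 8.57% of members passed the adjusted p alone, against 2.95% of all genes. At an unadjusted p below 0.05 there were 10 members, 3 higher and 7 lower in aged mice, which is 28.57% of members against 25.5% of all genes. The median log2 fold change, aged over young, was -0.13 over the 35 members and 0.03 over all genes tested, and single members ranged from -0.86 to 0.70.

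**Figure D1:**
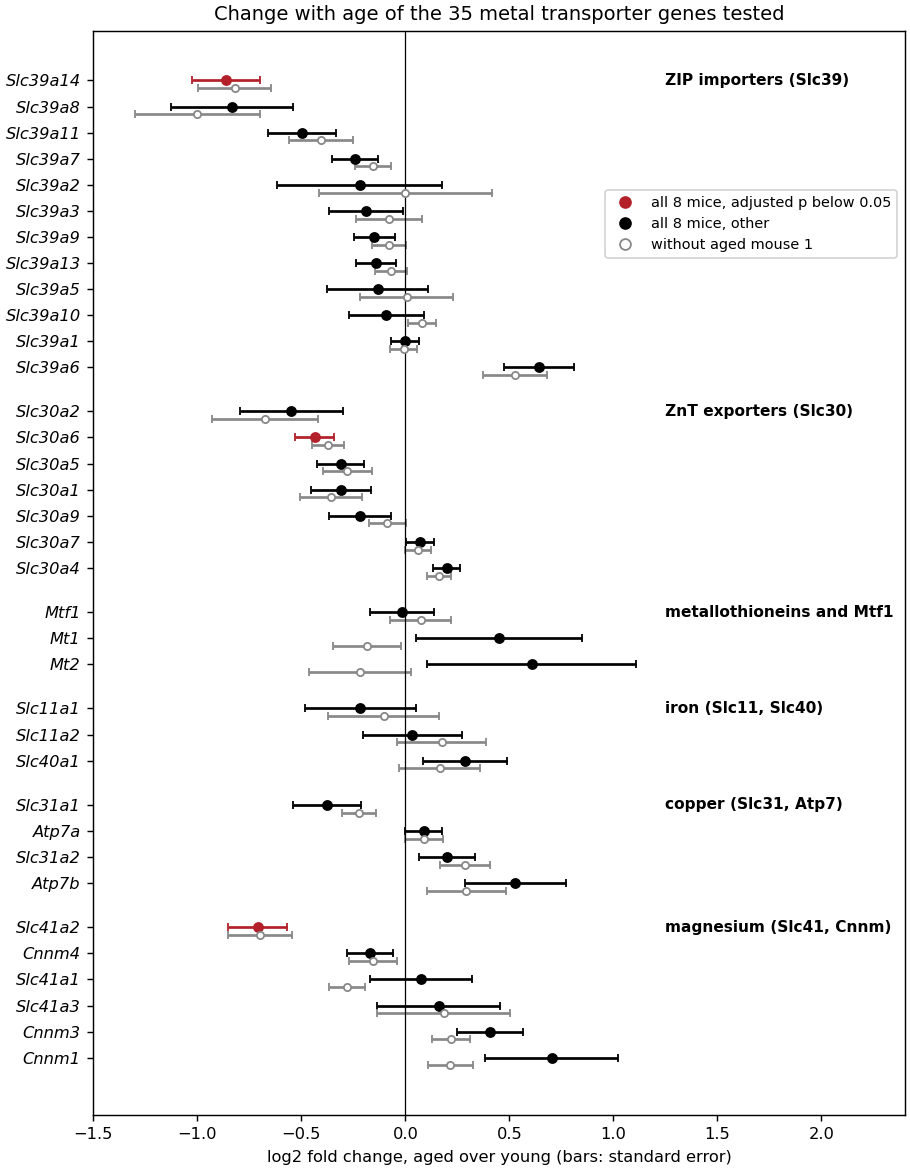
Log2 fold change of each of the 35 genes tested, aged over young, grouped by family, with bars for the standard error. Filled points use all 8 mice (red where the adjusted p was below 0.05) and open points leave out aged mouse 1. Slc39a14, Slc30a6 and Slc41a2 are the red points, at -0.86, -0.44 and -0.71, while Mt1 and Mt2 lie on opposite sides of 0 with and without aged mouse 1.

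Slc39a14 (ZIP14) is a minus-strand gene of chromosome 14 (70703274 to 70751232 in mm9) with 10 exons in its longest coding transcript. Its level was 33.98, 31.48, 33.62 and 49.69 CPM in aged mice 1 to 4 and 82.85, 65.21, 60.73 and 61.67 CPM in young mice 1 to 4. Every aged mouse was below every young mouse, and aged mouse 4 was the closest to the young group. The level was 1.82-fold lower in aged mice, a log2 fold change of -0.86 (standard error, SE, 0.16; adjusted p = 0.0390). Without aged mouse 1 it was -0.82 (SE 0.18, adjusted p = 0.0361). The adjusted p rose above 0.05 when aged mouse 2 (0.0673), aged mouse 3 (0.0726), young mouse 1 (0.108), young mouse 2 (0.0917), young mouse 3 (0.0904) or young mouse 4 (0.103) was left out. It fell to 0.0047 without aged mouse 4, while the log2 fold change stayed between -1.03 and -0.75. The S3 marker sums given above were also lower in every aged mouse and highest among the aged in mouse 4. Of the single S3 markers only Atp11a was lower in every aged mouse, while Slc7a13 and Cyp7b1 overlapped. The part of these markers in the result was not tested.

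Slc41a2 is a minus-strand gene of chromosome 10 (82693593 to 82800627 in mm9) with 11 exons in its longest coding transcript. Its level was 23.08, 24.07, 18.44 and 29.04 CPM in aged mice 1 to 4 and 45.06, 35.65, 36.25 and 37.86 CPM in young mice 1 to 4. The groups did not overlap, and aged mouse 4 was again the highest of the aged. The level was 1.64-fold lower in aged mice, with a log2 fold change of -0.71 (SE 0.14, adjusted p = 0.0400). Without aged mouse 1 it was -0.70 (SE 0.15, adjusted p = 0.0386). The adjusted p rose above 0.05 when aged mouse 2 (0.0682), aged mouse 3 (0.0617), young mouse 1 (0.115), young mouse 2 (0.0881), young mouse 3 (0.0948) or young mouse 4 (0.122) was left out.

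Slc30a6 (ZnT6) is a plus-strand gene of chromosome 17 (74794972 to 74823569 in mm9) with 14 exons in its longest coding transcript. Its level was 15.27, 18.47, 17.58 and 19.23 CPM in aged mice 1 to 4 and 23.42, 23.69, 25.03 and 23.27 CPM in young mice 1 to 4. The young mice were close to each other and all of them lay above all aged mice. The log2 fold change was -0.44 (SE 0.09, adjusted p = 0.0460), or 1.35-fold lower in aged mice, and it was -0.37 without aged mouse 1 (adjusted p = 0.0344). The adjusted p exceeded 0.05 without aged mouse 2 (0.0673), aged mouse 3 (0.0772), young mouse 1 (0.128), young mouse 2 (0.112), young mouse 3 (0.126) or young mouse 4 (0.130). With upper-quartile scaling it was 0.0506 and with library size only 0.0602.

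Complete separation of the groups was seen in 8 members, or 22.9%, against 18.9% of all genes tested. Every aged mouse was below every young mouse in 5 members, Slc39a14, Slc41a2, Slc30a6, Slc39a11 and Slc31a1, and 10% of all genes tested were so separated. Every aged mouse was above every young mouse in 3 members, Slc39a6, Slc30a4 and Cnnm3, and 8.85% of all genes tested were so separated. The count of separated members was 10 without aged mouse 1, when 23.9% of all genes tested were separated, 13 without aged mouse 3 (25.0% of all genes) and 13 without aged mouse 4 (27.8% of all genes).

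**Figure D2:**
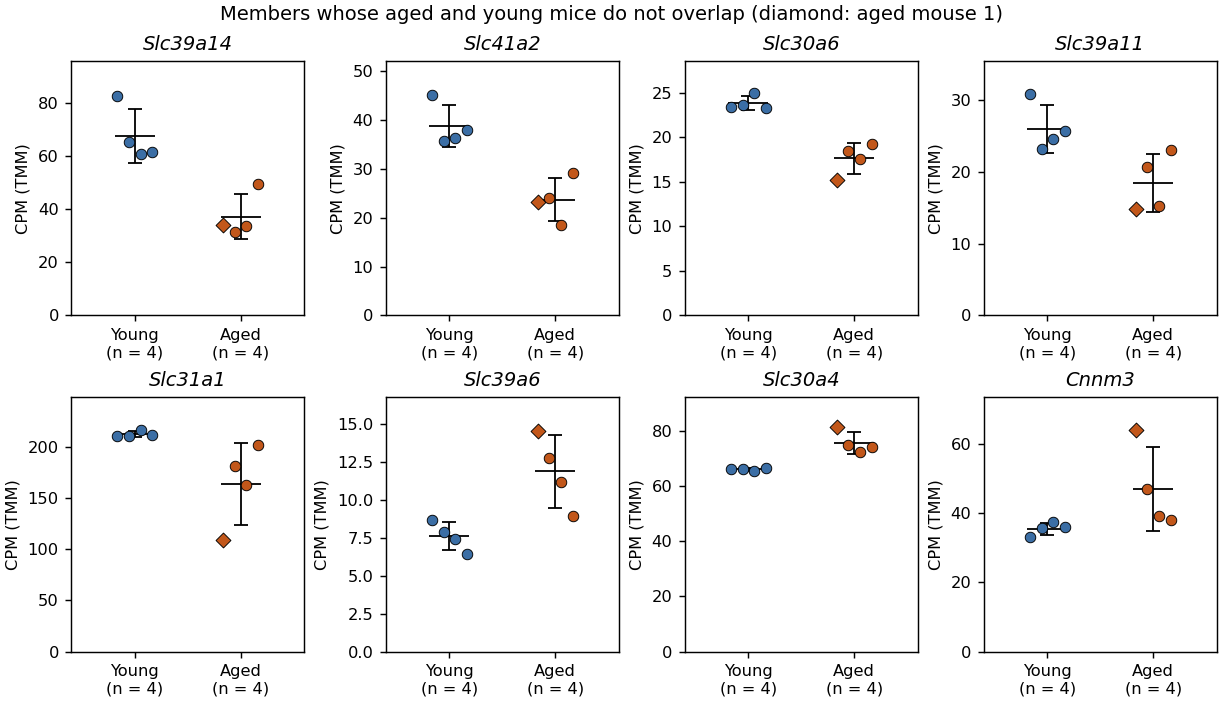
Level in CPM of the 8 members whose aged (n = 4) and young (n = 4) mice do not overlap, 1 point per mouse, with the mean and SD and with each axis starting at 0. Aged mouse 1 is the diamond, at 109.2 CPM for Slc31a1 and 64.23 CPM for Cnnm3, where it lies far from the other aged mice. Slc39a14 in aged mice lies between 31.48 and 49.69 CPM, below the lowest young mouse at 60.73 CPM.

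Among the ZIP genes 11 of 12 tested had a log2 fold change below 0 with a median of -0.17, but 10 of 12 with upper-quartile scaling, and 9 of 12 both with library size only and without aged mouse 1, when the median was -0.07. Only Slc39a14 passed the adjusted p. Slc39a8 (ZIP8), the closest relative of Slc39a14 and likewise a carrier of zinc, iron and manganese, stood at 55.0, 46.44, 24.21 and 40.43 CPM in aged mice 1 to 4 and at 100.7, 53.36, 51.28 and 90.55 CPM in young mice 1 to 4. Its groups overlapped, because aged mouse 1 exceeded young mice 2 and 3. The estimated log2 fold change was -0.83 (SE 0.29, adjusted p = 0.127), nearly the size of that of Slc39a14 with a larger error, and it was -1.0 without aged mouse 1 (adjusted p = 0.0804). DESeq2 called Slc39a8 at an adjusted p of 0.0424.

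Slc39a11 (ZIP11), a zinc carrier of inner membranes, stood at 14.88, 20.68, 15.23 and 23.10 CPM in aged mice 1 to 4 and at 30.82, 23.16, 24.55 and 25.63 CPM in young mice 1 to 4. The groups were separated by a narrow margin, between aged mouse 4 and young mouse 2. Its log2 fold change came to -0.50 (SE 0.16, adjusted p = 0.111), and leaving out aged mouse 4 brought the adjusted p to 0.0475.

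Slc39a6 (ZIP6) was the only ZIP gene with a log2 fold change above 0 under TMM scaling, although others joined it with upper-quartile scaling or library size only. It stood at 14.54, 12.75, 11.17 and 8.94 CPM in aged mice 1 to 4 and at 8.63, 7.88, 7.41 and 6.44 CPM in young mice 1 to 4. All aged mice were above all young mice, with aged mouse 4 close to young mouse 1. The log2 fold change was 0.64 (SE 0.17, adjusted p = 0.0707), and 0.53 without aged mouse 1 (adjusted p = 0.0785). It did not pass the edgeR test, but the adjusted p was 0.0144 with DESeq2, 0.0499 with library size only and 0.0264 without aged mouse 4. Slc39a10 (ZIP10), the partner with which ZIP6 forms a complex, had a log2 fold change of -0.09 (adjusted p = 0.770) and of 0.08 without aged mouse 1, with aged mouse 1 at 40.27 CPM and the other 7 mice between 66.22 and 77.60 CPM.

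The other ZIP genes moved less. Slc39a7 (ZIP7), which releases zinc from the endoplasmic reticulum, stood at 63.64, 90.35, 78.30 and 79.98 CPM in aged mice 1 to 4 and at 95.48, 100.8, 85.75 and 87.00 CPM in young mice 1 to 4. Its groups overlapped, with aged mouse 1 the lowest, and the log2 fold change was -0.24 (SE 0.11, adjusted p = 0.213), and -0.155 without aged mouse 1. Slc39a9 and Slc39a13, carriers of the Golgi and vesicles, had log2 fold changes of -0.15 and -0.14, and of -0.08 and -0.07 without aged mouse 1. Slc39a1 (ZIP1), a carrier of the plasma membrane, had a log2 fold change of 0.00 (SE 0.07) and stayed between 76.37 and 86.00 CPM in all 8 mice. The log2 fold changes of Slc39a3, Slc39a5 and Slc39a2 lay between -0.22 and -0.13 with adjusted p values of 0.517 or more, and without aged mouse 1 they were -0.08 for Slc39a3, 0.01 for Slc39a5 and 0.00 for Slc39a2. Slc39a2 was the scarcest member tested, at 6 to 22 counts per library, and only 2 of its aged libraries held at least 10 counts.

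Among the ZnT genes 5 of 7 tested had a log2 fold change below 0 under each scaling and without aged mouse 1, with a median of -0.31 (-0.20 with library size only), and Slc30a6 alone passed the adjusted p. Slc30a5 (ZnT5), with which ZnT6 forms the zinc carrier of the early secretory pathway, stood at 108.5, 100, 114.5 and 140.6 CPM in aged mice 1 to 4 and at 136.4, 142.8, 136.5 and 158.9 CPM in young mice 1 to 4. The groups overlapped by aged mouse 4 alone. Its log2 fold change was -0.31 (SE 0.11, adjusted p = 0.137), and the adjusted p was 0.0329 without aged mouse 4. Slc30a1 (ZnT1), the zinc exporter of the plasma membrane, had the same log2 fold change of -0.31 (SE 0.14, adjusted p = 0.212). Slc30a2 (ZnT2), which loads zinc into vesicles, had the most negative value of the family, -0.55, with an SE of 0.25 (adjusted p = 0.205). Its aged mice fell into a low pair, mice 2 and 3 at 44.56 and 42.28 CPM, and a pair within the young range, mice 1 and 4 at 75.92 and 80.09 CPM. Slc30a9, a carrier of mitochondria, had a log2 fold change of -0.22, with aged mouse 1 lowest at 134.0 CPM, and of -0.09 without that mouse.

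Slc30a4 (ZnT4), a carrier of endosomes and lysosomes, stood at 81.52, 74.87, 72.37 and 74.32 CPM in aged mice 1 to 4 and at 66.08, 66.11, 65.28 and 66.63 CPM in young mice 1 to 4. The young mice were almost equal and all aged mice were above them. The estimated log2 fold change was 0.20 (SE 0.07, adjusted p = 0.111), or 1.15-fold, and 0.16 without aged mouse 1 (adjusted p = 0.112). Slc30a7 (ZnT7), a further Golgi carrier, had a log2 fold change of 0.07 and lay between 55.94 and 62.53 CPM in all mice.

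The metallothioneins Mt1 and Mt2 lie side by side on the plus strand of chromosome 8 of mm9, at 96702989 to 96704225 and 96696518 to 96697467. Mt1 stood at 141.1, 51.19, 48.53 and 32.85 CPM in aged mice 1 to 4 and at 55.29, 40.56, 53.52 and 51.51 CPM in young mice 1 to 4. Mt2 stood at 85.10, 26.54, 23.30 and 13.02 CPM in aged mice 1 to 4 and at 30.02, 19.89, 20.40 and 27.05 CPM in young mice 1 to 4. For both genes aged mouse 1 was the highest of all 8 mice and aged mouse 4 the lowest, and aged mice 2 and 3 lay within the young range. Its log2 fold change came to 0.45 (SE 0.40, adjusted p = 0.497) for Mt1 and 0.61 (SE 0.50, adjusted p = 0.464) for Mt2. Without aged mouse 1 both turned below 0, to -0.18 (adjusted p = 0.510) and -0.22 (adjusted p = 0.605). Mtf1, the zinc-sensing activator of both, had a log2 fold change of -0.02 (SE 0.16, adjusted p = 0.954) and of 0.07 without aged mouse 1, and that mouse was its lowest library at 29.27 CPM.

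In aged mouse 1 genes known to respond to glucocorticoids were high together with Mt1 and Mt2. Sgk1, a kinase of sodium transport, was at 489.5 CPM there and at 66.64 to 265.8 CPM in the other 7 mice. Per1, a clock gene, was at 168.3 CPM there and at 24.59 to 48.11 CPM elsewhere. Fkbp5, a chaperone of the glucocorticoid receptor, was at 390.7 CPM there and at 73.05 to 255.2 CPM elsewhere. All 9 genes of the list were highest in that mouse, which was the highest library for 28.4% of all genes tested. The part of these genes in the metallothionein values was not tested. Over all aged mice 1 of the 9 passed the adjusted p, Zbtb16, with a log2 fold change of 3.01 (adjusted p = 0.0390), and the median log2 fold change of the list was 0.60 with and -0.10 without aged mouse 1.

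**Figure D3:**
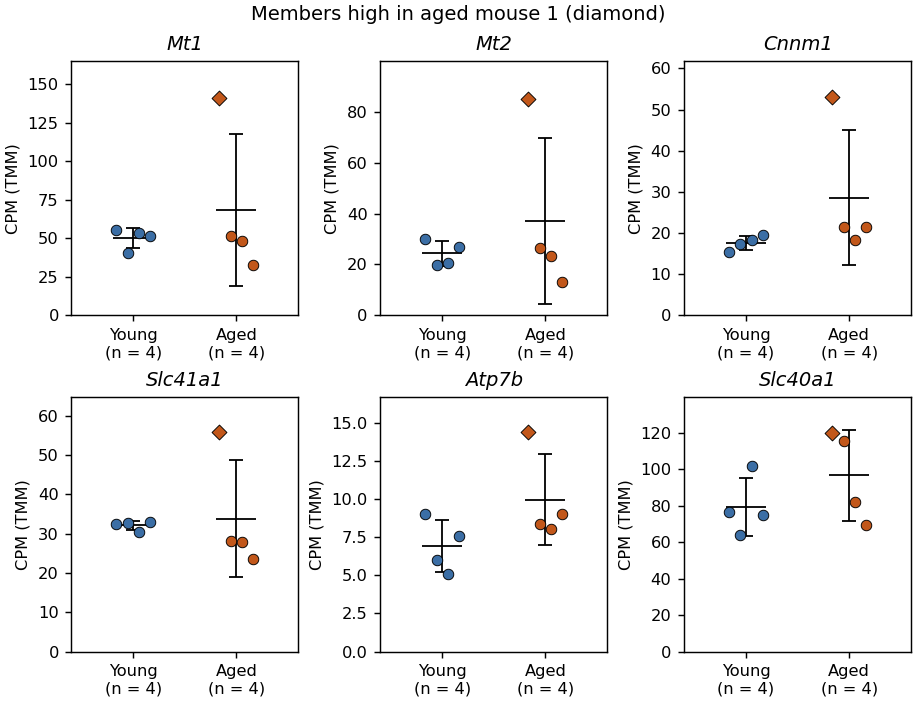
Level in CPM of Mt1, Mt2, Cnnm1, Slc41a1, Atp7b and Slc40a1 in young (n = 4) and aged (n = 4) mice, 1 point per mouse, with the mean and SD and with each axis starting at 0. Aged mouse 1, the diamond, is the highest of the 8 mice in all 6 panels. For Slc40a1 aged mouse 2 is close to it, at 115.6 and 120.1 CPM.

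The promoters of Mt1 and Mt2 are shown because these genes were high together, and those of Slc41a2 and Slc30a6 because these genes passed the adjusted p. Sequences are from RefSeq on GRCm38.p6 and run from 250 bases before to 50 bases after the gene start, in the direction of the gene. The core of the metal response element bound by MTF1, written TGCACNC or TGCGCNC, was searched on both strands, and matches are in capitals. The windows are chr8:94178839-94179138 on the plus strand for Mt1, chr8:94172368-94172667 on the plus strand for Mt2, chr10:83337768-83338067 on the minus strand for Slc41a2 and chr17:74395358-74395657 on the plus strand for Slc30a6.
Mt1: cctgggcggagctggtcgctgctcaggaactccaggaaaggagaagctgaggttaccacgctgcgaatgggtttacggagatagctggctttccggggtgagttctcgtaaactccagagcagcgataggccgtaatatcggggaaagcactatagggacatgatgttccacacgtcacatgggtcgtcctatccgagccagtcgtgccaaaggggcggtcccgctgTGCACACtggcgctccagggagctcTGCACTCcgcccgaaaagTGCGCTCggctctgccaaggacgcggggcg
Mt2: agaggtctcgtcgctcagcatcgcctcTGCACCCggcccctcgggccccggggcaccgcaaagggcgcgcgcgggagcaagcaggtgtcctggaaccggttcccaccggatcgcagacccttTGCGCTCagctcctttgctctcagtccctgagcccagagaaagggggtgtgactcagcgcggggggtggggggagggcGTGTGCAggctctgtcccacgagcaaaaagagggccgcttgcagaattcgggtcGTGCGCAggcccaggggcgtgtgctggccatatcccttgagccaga
Slc41a2: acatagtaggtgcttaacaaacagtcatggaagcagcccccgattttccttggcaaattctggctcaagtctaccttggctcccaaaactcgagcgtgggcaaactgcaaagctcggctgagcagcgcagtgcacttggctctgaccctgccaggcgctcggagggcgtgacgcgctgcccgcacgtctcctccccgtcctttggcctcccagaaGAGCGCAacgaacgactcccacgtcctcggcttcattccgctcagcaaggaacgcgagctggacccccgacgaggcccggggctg
Slc30a6: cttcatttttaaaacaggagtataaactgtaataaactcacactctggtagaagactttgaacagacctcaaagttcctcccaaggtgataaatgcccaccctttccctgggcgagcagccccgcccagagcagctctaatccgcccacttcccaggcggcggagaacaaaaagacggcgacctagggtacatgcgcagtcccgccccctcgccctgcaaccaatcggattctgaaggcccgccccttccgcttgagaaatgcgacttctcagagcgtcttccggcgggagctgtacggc

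Mt1 held 3 matches, Mt2 held 4, Slc41a2 held 1 and Slc30a6 none. Of 32851 promoters of 300 bases in the RefSeq table, 25.7% held at least 1 match and 1.97% held at least 3. A promoter was given for 35 of the 41 members, which had 40 windows between them, and not for Slc39a14, Slc39a6, Slc39a4, Slc30a8, Slc11a2 and Slc40a1. At least 1 match lay in 24 of the 40 windows, or 60.0%, and at least 3 in 4 windows, those of Mt1, Mt2, Slc30a4 and Slc30a10. Slc30a1, a gene known to be under MTF1, held 2. The windows were placed by the annotated gene start, and matches outside them were not searched, so the counts are not those of whole promoters. A match describes the letters and does not show a site in use.

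Among the iron genes none of 3 passed the adjusted p. Slc40a1, ferroportin, the exporter of iron, stood at 120.1, 115.6, 81.78 and 69.47 CPM in aged mice 1 to 4 and at 64.21 to 101.7 CPM in young mice, with a log2 fold change of 0.29 (SE 0.20, adjusted p = 0.385), and of 0.17 without aged mouse 1. Slc11a2 (DMT1), which imports ferrous iron, averaged 122.3 ± 46.7 CPM in aged and 119.5 ± 10.1 CPM in young mice (SD, n = 4 each). Its aged mice spread from 84.29 to 180.2 CPM, on both sides of all young mice, and the log2 fold change was 0.03 (adjusted p = 0.940), and 0.18 without aged mouse 1. Slc11a1 (NRAMP1), the carrier of macrophage phagosomes, was scarce, at 2.16, 2.60, 2.25 and 4.30 CPM in aged mice 1 to 4 and at 4.25, 2.96, 2.92 and 3.01 CPM in young mice 1 to 4. Among the 7 macrophage markers of the table Csf1r fell with age, with a log2 fold change of -1.0 (adjusted p = 0.0472). The others had log2 fold changes from 0.13 (Cd68) to 0.79 (Lyz2), none past the adjusted p, and the median of the list was 0.29. The 7 markers summed to 84.42, 126.8, 86.69 and 188.2 CPM in aged and to 158.9, 108.4, 106.0 and 134.7 CPM in young mice. Aged mouse 4 and young mouse 1 were highest for both Slc11a1 and this sum, and their part in the result was not tested.

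Of the 12 iron partner genes tested none passed the adjusted p, and their median log2 fold change was -0.20 with and -0.11 without aged mouse 1. Pcbp1, the chaperone that hands iron to ferritin, was lower in every aged mouse with 148.6 to 195.3 CPM against 233.0 to 243.8 CPM (log2 fold change -0.42, adjusted p = 0.0531), and the adjusted p was 0.0270 without aged mouse 1. Fth1, the ferritin heavy chain, was also lower in every aged mouse, at 2357 to 2601 CPM against 2992 to 3539 CPM (log2 fold change -0.35, adjusted p = 0.103). Pcbp2, a related chaperone, was higher in every aged mouse, at 344.7 to 434.1 CPM against 288.0 to 322.6 CPM (log2 fold change 0.30, adjusted p = 0.106). Hamp, the hormone that removes ferroportin, had at most 0.381 CPM in any library.

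Among the copper genes none of 4 passed the adjusted p. Slc31a1 (CTR1), which imports copper, stood at 109.2, 181.2, 162.4 and 202.1 CPM in aged mice 1 to 4 and at 210.9, 210.5, 216.7 and 211.7 CPM in young mice 1 to 4. The young mice were almost equal, and the aged mice lay below them and far apart, with aged mouse 1 lowest. The log2 fold change was -0.38 (SE 0.16, adjusted p = 0.193), and -0.22 (SE 0.08, adjusted p = 0.128) without aged mouse 1, the library with the low S1 and S2 markers, whose part in the result was not tested. Slc31a2, a relative of CTR1 on inner membranes, had a log2 fold change of 0.20 and Atp7a, a copper pump of the Golgi, one of 0.09. Atp7b, the other copper pump, was at 14.44, 8.39, 8.02 and 9.04 CPM in aged mice 1 to 4 and at 9.0, 6.03, 5.10 and 7.56 CPM in young mice 1 to 4, with a log2 fold change of 0.53 (SE 0.24, adjusted p = 0.209) and of 0.29 without aged mouse 1. A stretch of 2.18% of its transcript has a near-identical copy elsewhere in mm9, and no other member has one.

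Of 15 copper partner genes none passed the adjusted p, and their median log2 fold change was -0.11. Atox1, which carries copper to the ATPases, was at 43.64 to 53.27 CPM in aged and 57.00 to 66.85 CPM in young mice (log2 fold change -0.34, adjusted p = 0.0707). Steap3, a reductase of iron and copper, was at 2.90 to 5.20 CPM in aged and 6.26 to 8.26 CPM in young mice (log2 fold change -0.79, adjusted p = 0.0621), and its adjusted p was 0.0421 without aged mouse 1. Neither gene overlapped between the groups. In this list 4 genes were lower in every aged mouse, these and Sco1 (log2 fold change -0.27) and Sod3 (-0.46). In the other direction, 2 genes were higher in every aged mouse, Sco2 (0.23) and Xiap (0.14). Of all genes tested, 18.9% were separated in either direction.

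Among the 6 magnesium genes Slc41a2 alone passed the adjusted p, and the median log2 fold change was 0.12 with and 0.01 without aged mouse 1. Slc41a1, its close relative and a magnesium exporter of the plasma membrane, was at 55.93, 28.16, 27.74 and 23.54 CPM in aged mice 1 to 4 and at 32.48, 32.63, 30.47 and 33.02 CPM in young mice 1 to 4. Aged mouse 1 lay above and the other 3 aged mice below all young mice. The estimated log2 fold change was 0.08 (SE 0.25, adjusted p = 0.865) with that mouse, and -0.28 (SE 0.09, adjusted p = 0.0830) without it. Slc41a3, the last of the family, had a log2 fold change of 0.16 (adjusted p = 0.756).

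Cnnm3, of the CNNM family of magnesium proteins, stood at 64.23, 46.96, 39.34 and 37.98 CPM in aged mice 1 to 4 and at 33.10, 35.70, 37.40 and 36.03 CPM in young mice 1 to 4. All aged mice were above all young mice, although aged mouse 4 was only just above young mouse 3. Its log2 fold change came to 0.41 (SE 0.16, adjusted p = 0.156), and 0.22 (adjusted p = 0.164) without aged mouse 1. Cnnm1 had the highest log2 fold change of the members, 0.70 (SE 0.32, adjusted p = 0.205), of which 0.22 remained without aged mouse 1, since it was at 53.13 CPM in that mouse and at 15.47 to 21.60 CPM in the other 7. Cnnm4, which extrudes magnesium at the basolateral side, had a log2 fold change of -0.17 (adjusted p = 0.346).

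Among other genes of magnesium handling, Fxyd2, a subunit of the sodium pump, was lower in every aged mouse with a log2 fold change of -0.24 (adjusted p = 0.309), and of -0.12 without aged mouse 1. Pcbd1, a pterin dehydratase, was likewise lower in every aged mouse, with a log2 fold change of -0.48 (adjusted p = 0.140). Trpm6, the magnesium channel of the distal convoluted tubule, had a log2 fold change of 0.42 (adjusted p = 0.195), and Egf, which acts on that channel, one of -0.36 (adjusted p = 0.155). The 4 markers of the distal convoluted tubule summed to 1384 to 1755 CPM in aged and to 1118 to 1793 CPM in young mice, with none past the adjusted p. Single markers went different ways. Slc12a3 was higher in every aged mouse (log2 fold change 0.47, adjusted p = 0.133). Calb1 was lower in every aged mouse (-0.77, adjusted p = 0.0998, and 0.0274 without aged mouse 1). Pvalb had a log2 fold change of -1.03 (adjusted p = 0.202).

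Of 7 zinc partner genes none passed the adjusted p. Ace, a zinc peptidase of the brush border, was at 70.71, 78.58, 71.78 and 253.6 CPM in aged mice 1 to 4 and at 280.4 to 378.5 CPM in young mice (log2 fold change -1.54, adjusted p = 0.0738). Here too aged mouse 4 lay next to the young group. Of 8 acute-phase and inflammation genes tested 3 were higher with age, C3 (log2 fold change 1.45, adjusted p = 0.0267), Fgb (2.57, adjusted p = 0.0171) and Fgg (2.02, adjusted p = 0.0490). Of all genes tested, 2.95% passed the adjusted p. The median log2 fold change of the list was 1.18 with and 0.34 without aged mouse 1, and C3, Fgb and Fgg passed in both settings. Il6, the cytokine known to induce Slc39a14 in liver, had counts in 1 library only, at 0.0591 CPM.

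The other marker lists, for thick limb, principal cell, intercalated cell, podocyte, endothelium, lymphocyte, fibroblast, red cell and fat cell, held no gene past the adjusted p with all mice. The fibroblast markers Col1a1 and Col3a1 were lower in every aged mouse (log2 fold changes -1.20 and -1.24, adjusted p = 0.0729 and 0.0559). Without aged mouse 1 their adjusted p was 0.0184 and 0.0196. Pdgfra and Dcn of that list had log2 fold changes of 0.45 and 0.62. Ehd3 of the endothelium list was lower in every aged mouse (-0.28, adjusted p = 0.0890). Of the 5 red cell genes 4 were listed at 0 in every library. The 3 fat cell genes summed to 115.7 CPM in aged mouse 1, to between 3.63 and 24.59 CPM in the other aged mice and to between 0.544 and 10.63 CPM in the young mice.

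Levels of different genes were compared per length, as CPM per kb of the longest coding transcript. In young mice Mt1 was highest, at 79.6 ± 10.5 (SD, n = 4), followed by Slc31a1 at 51.2 ± 0.684, Slc30a5 at 45.2 ± 3.33, Mt2 at 43.8 ± 8.99 and Slc39a7 at 41.1 ± 3.19. The values of Mt1 and of Slc31a1 did not overlap with the next gene, whereas Slc30a5, Mt2, Slc39a7 and Slc30a9 each overlapped with the next. The Mt1 and Mt2 transcripts are short, at 631 and 556 nt, and the yield of short transcripts in the libraries was not tested. Slc39a14 stood at 13.7 ± 2.10 in young and 7.55 ± 1.71 in aged mice, Slc39a8 at 20.9 ± 7.17 and 11.8 ± 3.68, and Slc41a2 at 8.16 ± 0.915 and 4.99 ± 0.917. The lowest member tested, Slc39a2, was at 0.357 ± 0.0674 in young mice.

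**Figure D4:**
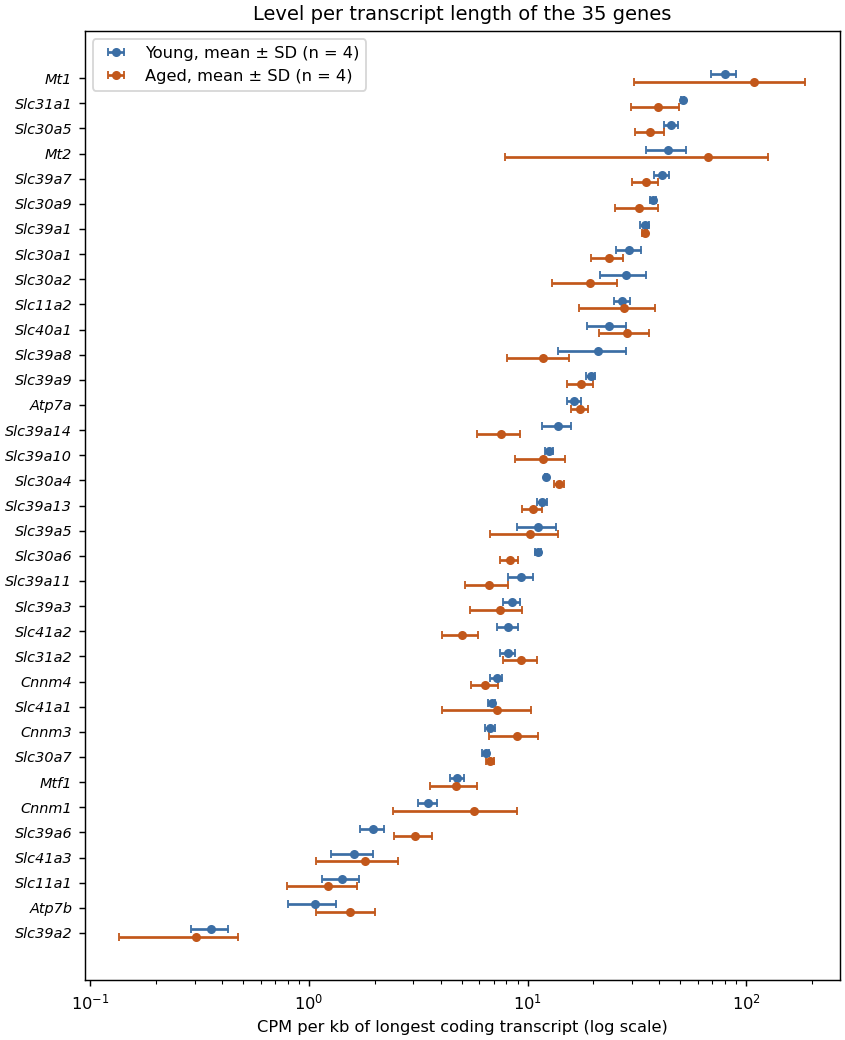
Level per length of the 35 genes tested, as CPM per kb of the longest coding transcript on a log axis, with the mean and SD in young (n = 4) and aged (n = 4) mice. Genes are ordered by the level in young mice, from Mt1 at 79.6 to Slc39a2 at 0.357, and the SD in aged mice is 77.9 for Mt1 and 58.6 for Mt2.

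The 6 genes below the minimum were nearly silent in this tissue. Mt3, the brain metallothionein, had 1, 2, 2 and 5 counts in aged mice 1 to 4 and 8, 5, 2 and 10 counts in young mice 1 to 4. Slc30a3, a zinc carrier of synaptic vesicles, had 2 counts in aged mouse 1 and in young mouse 4 and none elsewhere, and Slc39a12 had at most 4 counts in any library. Slc30a8, which loads zinc into insulin granules, had 20 counts in aged mouse 1 and at most 4 elsewhere. Slc39a4, the main zinc importer of the intestine, had 52 counts in aged mouse 1, 9 in young mouse 1 and at most 4 elsewhere. Slc30a10, a manganese exporter, had 1 count, in aged mouse 1. At these depths 3 counts correspond to 0.151 to 0.202 CPM, and such low levels allow no comparison.

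Across the 35 members aged mouse 1 was the highest library for 9 and the lowest for 12, or 60.0% at one end, and it was at one end for 57.7% of all genes tested. No other library was at an end for more than 12 members. With aged mouse 1 left out 21 of the 35 log2 fold changes were below 0, as with all mice, and the median was -0.08 against 0.02 over all genes.

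**Figure D5:**
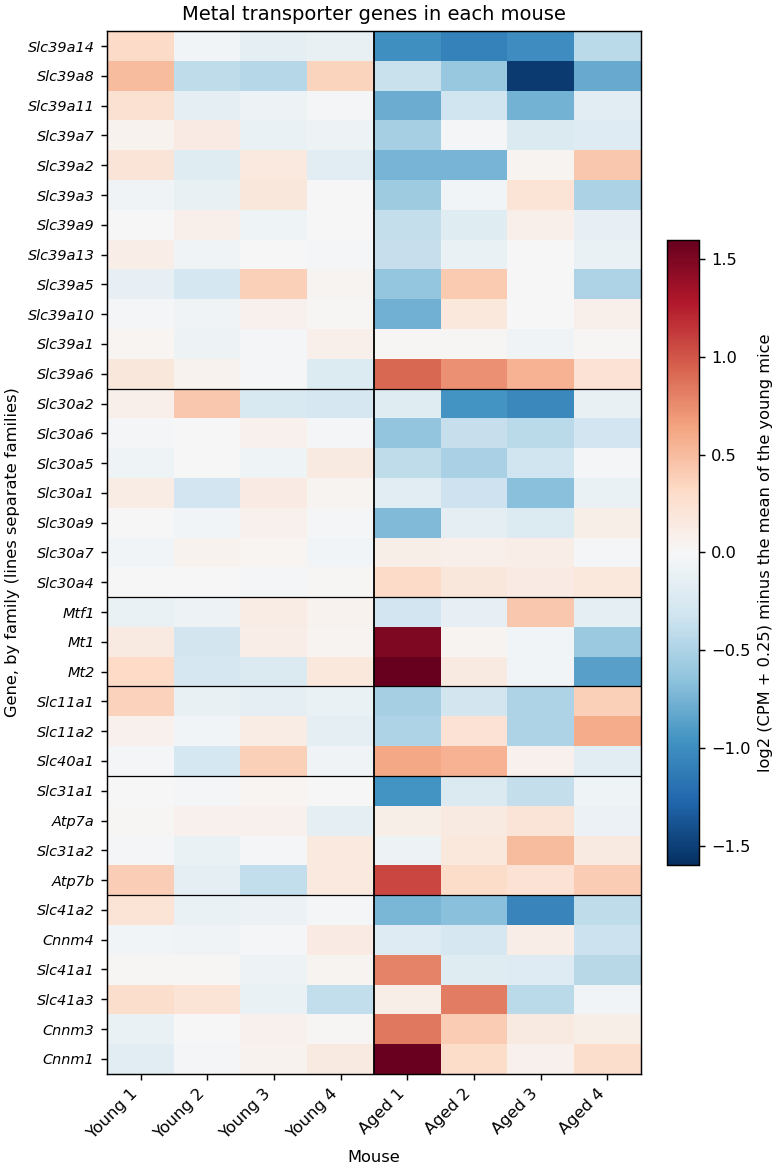
Each gene's log2 (CPM + 0.25) in each mouse minus the mean of the 4 young mice, with families separated by lines and aged mice on the right. The scale ends at 1.6 in both directions and 1 value lies past it. Slc39a14, Slc41a2 and Slc30a6 are blue in all 4 aged mice, and Mt1, Mt2 and Cnnm1 are dark red in aged mouse 1 only.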

How the data were processed

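Cortex RNA of 8 male mice, 4 per age group, was sequenced. The authors made stranded libraries, used TopHat2 for alignment to mm9 and HTSeq to count read pairs per RefSeq gene, and deposited raw counts without normalization. Versions of TopHat2 and HTSeq are not given in the sources used here, and the submitters' processing notes also name CASAVA 1.8.2 and SAMtools. The 5 rows of each table that name no gene were left out of library sizes, among them pairs on no gene (20.0% to 29.9% of a library) and pairs aligned to several places (34.3% to 39.1%). A joint table with the same values was not used.

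Counts were tested in R 4.3.3 with edgeR 4.0.16 (quasi-likelihood, TMM, filterByExpr with a minimum count of 10, no covariate) over 13944 genes, with Benjamini-Hochberg adjustment. The standard error was the log2 fold change over the square root of F. Alternatives used RLE, upper-quartile or library-size scaling, DESeq2 1.42.0, limma-voom (limma 3.58.1), other count filters and call rules, the replicate number as a block, and each mouse left out. Scripts were tested on simulated data. No 2 libraries were duplicates (smallest chi-square per gene 9.22). The floor of 3 counts covers counting error only. Transcript lengths and positions came from GENCODE vM1 on mm9 and copies from BLAST 2.17.0 (98% identity over at least 100 nt). Promoters came from RefSeq on GRCm38.p6. The figures were drawn with matplotlib 3.10.9.

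The members, the partner and marker lists and the tests were chosen with earlier results of these data known. Every member is named. Those past the adjusted p, those whose groups do not overlap, the 5 highest per length, Mt1 and Mt2 were to be described in full, and other genes come only from the lists for zinc, iron, copper and magnesium partners, stress, acute phase and cell types. A result of the magnesium partner list is not reported here. Members described in more detail than this rule asks, such as Slc39a8, Slc41a1 and Cnnm1, were chosen after their values were seen.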

Additional observations from a re-analysis of the deposited data

Results flagged for a closer look

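In each group of 4 mice the gap between the highest or lowest mouse and its neighbour was divided by the range of the group and compared with Dixon's 95% critical value. Over the 35 members and both groups, 70 groups were examined, of which chance gives about 1 in 20, or 3.5, and 8 had such a mouse. In 4 of them it was aged mouse 1, as the highest of the aged mice: Cnnm1 with a ratio of 0.909, Slc41a1 with 0.857, Atp7b with 0.840 and Mt1 with 0.831. Aged mouse 4 was the highest of the aged mice for Slc39a14, with a ratio of 0.863. Aged mouse 3 was the lowest of the aged mice for Slc39a1, with a ratio of 0.929, although the aged mice lay between 78.03 and 82.15 CPM. Young mouse 1 was the highest of the young mice for Slc11a1, with a ratio of 0.934, and young mouse 4 for Cnnm4, with a ratio of 0.843.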

How the results depend on the processing

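The number of members called, 2 with all mice, was 2 with RLE and upper-quartile scaling, limma-voom and each count filter, 3 with library size only (3.5% of all genes tested, against 2.06% with TMM), with the adjusted p alone and at an adjusted p below 0.1, and 4 with DESeq2, which added Slc39a6 and Slc39a8 and called 6.26% of all genes. With 1 mouse left out it ranged from 0 to 4. It was 0 without aged mouse 2 or 3 or any young mouse, and these settings called 8 to 119 genes of all those tested. It was 2 without aged mouse 1, and 4 without aged mouse 4, which added Slc39a11 and Slc39a6 and called 5.21% of all genes. The median log2 fold change over all genes tested was 0.03 with TMM and 0.14 with library size only. With the replicate number as a block, 0 members and 130 genes were called, and the adjusted p of Slc39a14, Slc41a2 and Slc30a6 was 0.0578, 0.0568 and 0.0910. Same-numbered aged and young mice correlated at 0.206, 0.038, 0.199 and -0.03 in their deviations from the group means. Pairs with different numbers correlated at -0.3 to 0.165. These values do not settle whether the numbers mark a pairing, and the main test used none. The members whose groups do not overlap, 8 with all mice, were 8 to 13 with 1 mouse left out, when 21.9% to 27.8% of all genes were so separated, and 7 or 8 under the other scalings, and these counts were added after the data had been seen. The log2 fold change of Mt1 turned to -0.083 and that of Mt2 to -0.086 with limma-voom, which gives each library its own weight, and with 1 mouse left out they ranged from -0.18 to 0.68 and from -0.22 to 0.89, in both cases lowest without aged mouse 1. The cause of these and of the other changes was not tested. For the 12 members described in full, 182 of the alternative values kept their direction and their call under the joint rule of adjusted p and fold, 14 lost the call, 4 gained it and 4 changed sign. The adjusted p alone changed side for further values of Slc30a6, and for Slc30a5 (0.0329 without aged mouse 4) and Slc30a4 (0.0486 with library size only). With 4 mice a group the depth limits the members below the count minimum. The level in aged mouse 1 lay more than 1.5 times above or below the median of the other 7 mice for several members. These include Mt1, Mt2, Cnnm1, Slc41a1 and several ZIP genes. The other 7 mice include the young mice, so this ratio does not separate a change with age from a deviation of aged mouse 1. For Slc39a14 the ratio was 0.56, although aged mouse 1 at 33.98 CPM lay within the other aged mice, at 31.48 to 49.69 CPM.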
